A study of Mus musculus with 72 samples.

Results

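The genes described here are the liver iron hormone hepcidin and the genes that carry out or control its action on iron. They are 10 of the 20772 genes named on the arrays: Hamp and Hamp2, the pair of mouse hepcidin genes; Slc40a1, Tfrc, Slc11a2 and Cybrd1, which move iron across membranes; Tfr2, Hfe and Bmp6, which tell the liver how much iron there is; and Id1, a target of the same signal. They were found by gene symbol, and each had a single probe set. The set was chosen by a measured value, the lower Hamp2 signal in ketogenic liver, so every liver diet difference below is a description and carries no test.

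Hepcidin is a peptide hormone that hepatocytes secrete when iron is plentiful or during inflammation. It binds ferroportin, the iron exporter encoded by Slc40a1, and causes its degradation, so that less iron leaves enterocytes, macrophages and hepatocytes for the plasma. The liver reads iron through transferrin receptor 2 and the protein Hfe, and through bone morphogenetic protein 6 from sinusoidal endothelial cells, whose receptors act through Smad proteins on the Hamp promoter. Mice carry a second hepcidin gene, Hamp2, close to Hamp, and iron regulation by the hormone in mice is attributed to Hamp.

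The study measured RNA on 72 Affymetrix arrays from male C57BL/6J mice that were 8 weeks old, kept in 12 h of light and 12 h of dark, and fed a ketogenic diet or normal chow (spelled Norma Chow in the labels) for 4 weeks. Liver and intestine (labelled INTESTINE (IEC), with no segment given) were taken at 6 Zeitgeber times (ZT), ZT0 being lights on and ZT12 lights off, with 3 arrays in each of the 24 groups of tissue, diet and time. The protocol text shared by all samples also mentions fructose gavage at 4 g/kg for 7 days, water with 30% sucrose, and killing at the start of light and of dark alone. Nothing says whether these mice received either sugar, or whether each array of a group stands for its own mouse, so the p-values rest on the spread from array to array.

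Levels are the deposited probe set intensities on a linear scale. The median probe set per array lay between 105 and 121, and the brightest value reached 89033. Differences are on the scale of log2(intensity + 16), which understates changes of dim genes. A gene was tested in a tissue when its mean log2 value there was at or above the 40th percentile, an intensity of 98.8 in liver and 95.2 in intestine. In liver 9 members passed, all but Cybrd1; in intestine Hamp2, Tfrc, Slc40a1, Slc11a2, Cybrd1 and Id1 passed, and Hamp, Tfr2, Hfe and Bmp6 did not. The labels matched the markers: 4 hepatocyte markers summed to between 44795 and 51711 on every liver array and to between 208 and 9221 on intestine arrays, and 5 epithelial markers to between 30278 and 35741 in intestine and 1015 and 2956 in liver. Of the segment markers, the ileal genes Fabp6, Slc10a2 and Slc51a summed to between 8478 and 15635 in intestine and Pdx1, Gata4 and Cck, of the proximal part, to between 857 and 1609.

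A few arrays stood apart from the rest. Among liver chow arrays, ZT8 replicate 12 had 1360 for the clock output gene Dbp, close to 2 of the ZT12 arrays (1282 and 1328), while ZT12 replicate 17 had 2692. For the clock gene Per2, ZT8 replicate 12 had 1120, against 498 and 699 on the other ZT8 arrays. Its value for the clock gene Arntl, 143, lay between theirs (82.1 and 210). By distance from their groups over all tested genes, these chow arrays ranked only 5th and 7th among the livers (SD 0.22 and 0.21). In intestine the ketogenic arrays ZT0 replicate 1, ZT8 replicate 26 and ZT20 replicate 27 lay farthest from the other arrays of their groups, with an SD of the differences over all tested genes of 0.37, 0.27 and 0.27. The liver array farthest from its group was ketogenic ZT4 replicate 20 (0.2505), which was not set aside with the 2 chow liver arrays. No member's call in liver changed without those 2 chow arrays. The Hamp rhythm difference did pass without ketogenic ZT4 replicate 20, as given below. Intestine results that moved without the 3 intestine arrays are given both ways.

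The hepcidin genes lie side by side on chromosome 7, Hamp2 at chr7:30922372-30924181 and Hamp at chr7:30942368-30944029 of GRCm38.p6, both on the minus strand and 18186 bases apart. Their promoters are shown because the paired genes gave different readings in the same livers although the sequences before their start sites are nearly alike. Windows of this kind were found for 7 of the 10 members in the RefSeq promoter table. The 250 bases before each annotated start, from RefSeq on GRCm38.p6 and read 5′ to 3′ on the minus strand, are chr7:30944030-30944279 for Hamp and chr7:30924182-30924431 for Hamp2. Capitals mark GGCGCC, the core of the element through which bone morphogenetic protein signals act on Hamp, or the bases aligned to it in Hamp2, and the match TTCTTGGAA to TTCNNNGAA, the palindrome that Stat proteins bind.
Hamp: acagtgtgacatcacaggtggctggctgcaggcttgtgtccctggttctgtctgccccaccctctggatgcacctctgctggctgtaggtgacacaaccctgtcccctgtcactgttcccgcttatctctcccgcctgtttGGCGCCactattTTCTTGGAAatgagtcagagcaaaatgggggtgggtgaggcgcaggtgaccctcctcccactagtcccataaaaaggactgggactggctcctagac
Hamp2: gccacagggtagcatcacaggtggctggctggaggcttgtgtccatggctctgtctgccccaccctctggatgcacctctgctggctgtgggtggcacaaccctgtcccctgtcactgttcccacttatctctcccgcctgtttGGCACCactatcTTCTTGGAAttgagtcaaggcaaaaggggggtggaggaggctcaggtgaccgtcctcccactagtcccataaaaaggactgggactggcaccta
The windows were identical at 227 of 247 aligned bases (91.9%), with 6 further columns of gaps. GGCGCC stood at positions -109 to -104 before the start site of Hamp, and Hamp2 had no match on either strand; counted from 1 at the 5′ end of the 6 letters, the Hamp to Hamp2 change is G4A. TTCTTGGAA stood in both, at -97 to -89 in Hamp and at -94 to -86 in Hamp2. The E-box CACGTG was in neither. Each pattern reads the same on both strands; over 32544 RefSeq windows of 250 bases GGCGCC was present in 9.65%, TTCNNNGAA in 7.04% and CACGTG in 6.03%, and the matches shown do not overlap. Letters that match or do not match say nothing here about whether a factor bound.

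Hamp2 in liver was lower on the ketogenic diet at every one of the 6 times by the group mean, while the fitted difference of Hamp was close to 0. Hamp2 intensity ran from 182 to 5192 with a median of 3409 on chow and from 150.1 to 1919.8 with a median of 927 on the ketogenic diet, a ratio of medians of 3.68 (18 arrays each). The fitted difference, ketogenic minus chow, was -2.03 ± 0.33 (log2, SE), 4.09-fold lower, and it was the 6th largest fall among the 12463 genes tested in liver. This is the value that drew the members together.

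At ZT0 the chow arrays had Hamp2 at 2511, 3452 and 3951 and the ketogenic arrays at 946, 1801 and 1919.8. At ZT4 the values were 182, 2357 and 4027 on chow and 150.2, 847 and 937 on the ketogenic diet. At ZT8 they were 2914, 3105 and 4307 and 189.6, 860.4 and 918. Groups did not overlap at ZT0 or ZT8, whereas at ZT4 a single chow array, replicate 6, lay among the lowest of all livers. At ZT12 the chow arrays had 4302, 4680.5 and 5192 and the ketogenic arrays 1327, 1483 and 1872. At ZT16 they had 2109, 2821 and 3593, and 150.1, 159 and 1041. At ZT20 they had 2889, 3366 and 4517, and 197, 899.8 and 1461. All 3 ketogenic arrays lay below all 3 chow arrays at 5 of the 6 times, ZT4 being the exception.

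The liver values of Hamp2 were not spread evenly. In 6 of 36 livers, Hamp2 read between 150.1 and 197, inside the range of the intestine arrays (97.8 to 231), and no liver lay between 197 and 847, a gap of 4.29-fold. These 6 were 1 chow array (ZT4 replicate 6) and 5 ketogenic arrays (ZT4 replicate 4, ZT8 replicate 24, ZT16 replicates 5 and 6, and ZT20 replicate 9). Of the other 30 livers, the 17 on chow lay between 2109 and 5192 and the 13 on the ketogenic diet between 847 and 1919.8, with no overlap. Hamp on the same 6 arrays read 6492 to 8770, inside the span of all livers (6175 to 8770), so the probe set named Hamp2 did not follow Hamp there. Whether either probe set also detects RNA of its near-copy was not tested, since probe sequences were not used here. Chow ZT4 replicate 6 and ketogenic ZT4 replicate 4 were the second and the third farthest liver arrays from their groups over all tested genes (SD 0.25 and 0.24), whereas ketogenic ZT16 replicate 5 was among the closest (0.14). Leaving out any single array kept the fitted difference of Hamp2 between -2.25 and -1.89.

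**Figure D1:**
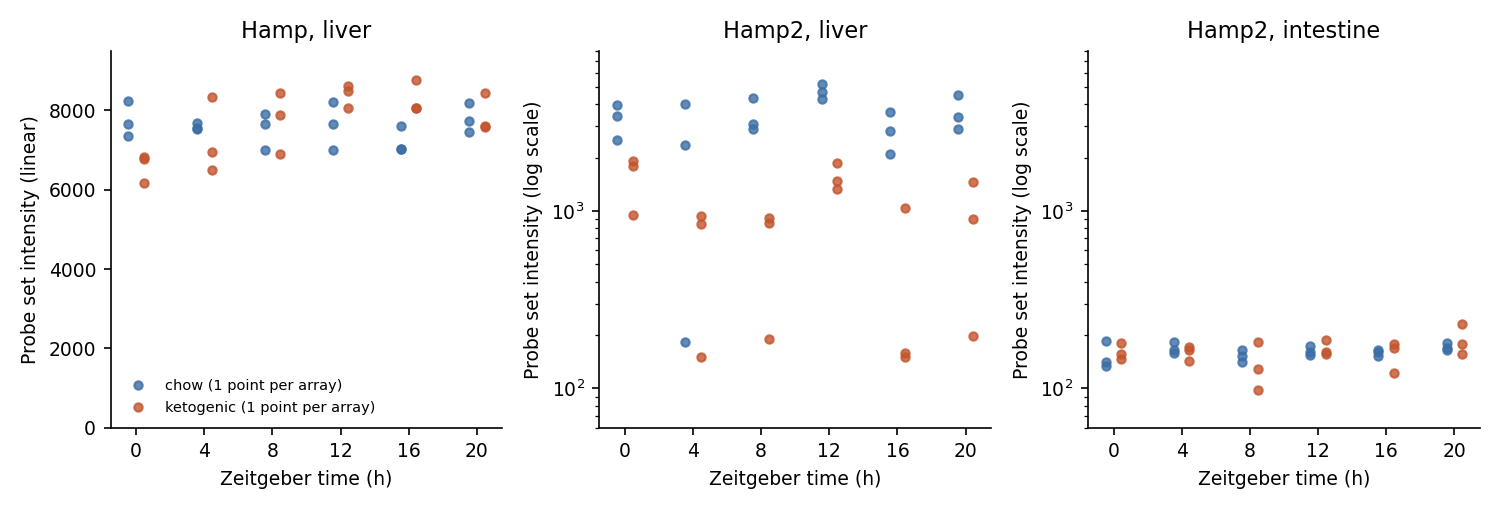
Probe set intensity of Hamp in liver (linear axis) and of Hamp2 in liver and intestine (log axes) against Zeitgeber time in hours, with 1 point per array, chow in blue and ketogenic in orange. Hamp stays between 6175 and 8770 on both diets, Hamp2 in liver has 6 arrays at 150.1 to 197 and none between those and 847, and Hamp2 in intestine lies between 97.8 and 231.

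Hamp, which encodes the hepcidin of iron regulation, ran from 6995 to 8239 with a median of 7629 in chow liver and from 6175 to 8769.6 with a median of 7958 in ketogenic liver. The difference over all times was 0.01 ± 0.03 (log2, SE). The times did not all look alike. At ZT0 the ketogenic livers had 6175, 6774 and 6811, all below the chow livers at 7348, 7666 and 8239. At ZT16 the ketogenic livers had 8047, 8058 and 8769.6, all above the chow livers at 7036, 7036 and 7609.8. At the other 4 times the diets overlapped.

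A 24 h cosine was fitted to each gene with its own mean, cosine and sine for each diet, which uses nothing of the mean diet difference. The amplitude is the height of the fitted curve above its mean on the log2 scale, and a rhythm was called by limma's moderated F test at a Benjamini-Hochberg adjusted p below 0.05 over all 12463 genes tested in the tissue. Hamp in ketogenic liver had an amplitude of 0.16 ± 0.03 (SE) with its peak at ZT13.6 and passed this limma test (adjusted p = 0.00101, 18 arrays). In chow liver the amplitude was 0.03 ± 0.03 and the limma test did not pass (adjusted p = 0.79). The difference between the diets in cosine and sine, tested directly with limma, had an adjusted p of 0.0636, so the rhythms were not shown to differ after adjustment. That limma difference passed when dim genes were filtered at the 60th percentile (adjusted p = 0.0472), with an intensity trend (0.046), without chow ZT12 replicate 16 (0.0393) and without ketogenic ZT4 replicate 20 (0.0116). With any other single array left out it did not pass, the highest adjusted p being 0.117, and the limma test of a diet by time interaction gave 0.328. In the authors' deposited table the JTK q-value for Hamp in ketogenic liver was 0.043, and in the authors' deposited table of BIO_CYCLE values it was 0.203.

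Hamp2 in liver had fitted amplitudes of 0.51 ± 0.38 (chow) and 0.20 ± 0.38 (ketogenic diet), and neither passed the limma test (adjusted p = 0.599 and 0.914). Its spread between arrays of a group, an SD of 1.09 on the log2 scale, was the widest of the members, against 0.10 for Hamp. Across the 12 liver groups the means of Hamp and Hamp2 had a Pearson r of -0.19, given as a description.

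In liver, 1 of 9 members was called rhythmic on chow (Slc40a1), against 17.6% of all genes, and 2 of 9 on the ketogenic diet (Hamp and Slc40a1), against 36.5%. Neither share stood above its background. No member's rhythm differed between the diets after limma adjustment (0 of 9, against 1.19% of genes). At an unadjusted limma p below 0.05 there was 1 of 9, Hamp. Shares of all genes, here and below, count adjusted calls, and none was computed at an unadjusted p.

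Slc40a1 encodes ferroportin, the only known mammalian iron exporter and the target of hepcidin. It was the one member called rhythmic in liver on both diets. On chow its mean intensity was 2058 ± 437 (SD, n = 3) at ZT4 and 1973 ± 127 at ZT8, and 1572 ± 78.3 at ZT20. On the ketogenic diet it went from 1407 ± 95.3 at ZT0 to 1991 ± 133 at ZT8 and back to 1535 ± 102 at ZT20. The highest chow mean was in the first hours of light and the highest ketogenic mean at ZT8. The limma cosine test passed on chow (amplitude 0.17 ± 0.05, peak ZT5.9, adjusted p = 0.0258) and on the ketogenic diet (0.19 ± 0.05, peak ZT8.9, adjusted p = 0.00608). The rhythms were not shown to differ (limma adjusted p = 0.46). The chow call was lost without ZT4 replicate 6 (limma adjusted p = 0.0815), ZT8 replicate 10 (0.0523) or ZT20 replicate 15 (0.0574), and in the limma test of any difference among times (0.101). In the authors' deposited table the JTK q-values were 0.0508 on chow and 0.0693 on the ketogenic diet, and the BIO_CYCLE q-values 0.332 and 0.396.

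At ZT0 the 3 ketogenic livers had Slc40a1 at 1325, 1384 and 1511, all below the chow livers at 1682, 1780.5 and 1818. At the remaining 5 times the diets overlapped. Over all times the liver difference was -0.08 ± 0.04 (log2, SE), a description.

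In intestine, Slc40a1 ran from 239 to 558 with a median of 323 on chow and from 118 to 603 with a median of 330.4 on the ketogenic diet. The lowest value, 118, belonged to ketogenic ZT0 replicate 1, one of the arrays that stood apart. The diets did not differ beyond the spread (log2 difference -0.06 ± 0.11, 95% interval -0.29 to 0.16, limma adjusted p = 0.643), and the estimate was 0.06 without the 3 arrays in doubt. At ZT8 the ketogenic arrays read 493, 562 and 603, above all chow arrays at 274, 394 and 454, and at ZT12 both diets were low, 241, 244 and 291 against 239, 282 and 286. The fitted amplitudes of Slc40a1 in intestine were 0.29 ± 0.12 with a peak at ZT2.8 on chow and 0.39 ± 0.12 with a peak at ZT7.6 on the ketogenic diet, and neither passed (limma adjusted p = 0.262 and 0.0689). On the ketogenic diet the limma test of any difference among times passed (adjusted p = 0.0189), as did the cosine test without any 1 of 5 ketogenic arrays (adjusted p between 0.0301 and 0.0441).

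**Figure D2:**
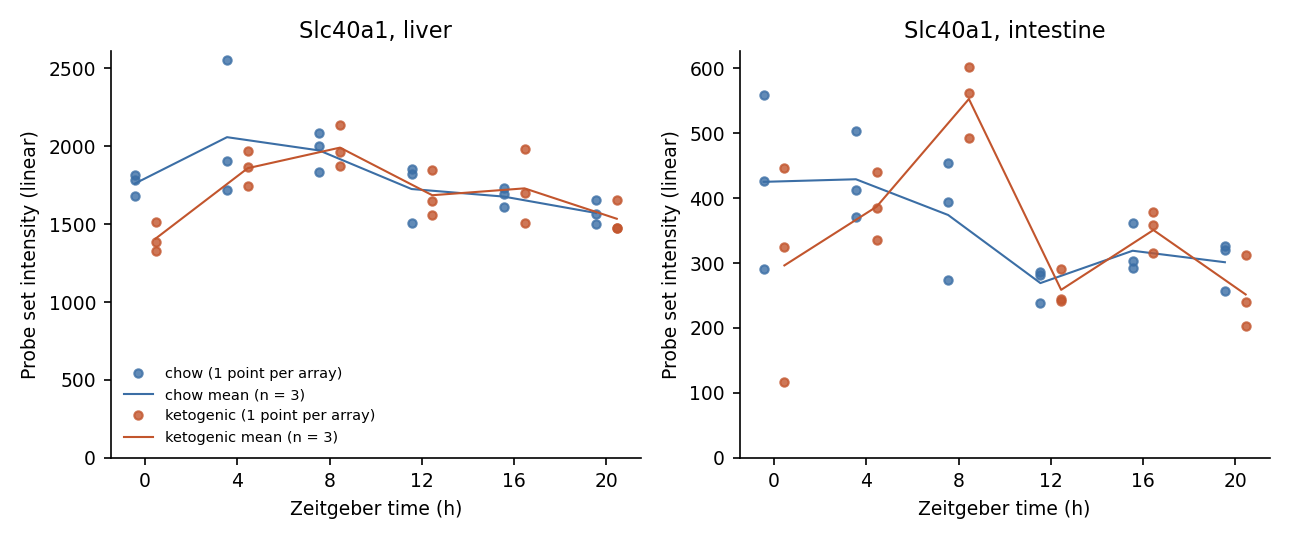
Slc40a1 probe set intensity (linear axis from 0) against Zeitgeber time in hours in liver and intestine, with 1 point per array and lines through the means of 3 arrays, chow in blue and ketogenic in orange. The ketogenic means are highest at ZT8 in both tissues, and the lowest intestine point, 118, is ketogenic ZT0 replicate 1.

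Tfrc encodes transferrin receptor 1, through which cells take up transferrin-bound iron, and its messenger RNA is stabilised when a cell lacks iron. In intestine Tfrc ran from 733 to 1338 with a median of 1053 on chow and from 675 to 1502 with a median of 1222 on the ketogenic diet. The ketogenic mean was higher at 5 of 6 times, 5 ketogenic arrays lay above all chow arrays, and 1 lay below all of them. The difference was 0.17 ± 0.07 (log2, SE, 95% interval 0.02 to 0.32), 1.13-fold, and did not pass (limma adjusted p = 0.0511). The lowest ketogenic value, 675, was on ZT0 replicate 1. Without the 3 intestine arrays in doubt the difference was 0.25 and passed (limma adjusted p = 0.00163), with quantile normalisation it was 0.24 and passed (0.00984), and it passed without any 1 of 11 of the 36 arrays, the lowest being 0.00636 without ketogenic ZT0 replicate 1. Over all 36 such omissions the difference lay between 0.14 and 0.22.

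In liver Tfrc was dim, from 111 to 247 with a median of 152 on chow and from 86.9 to 275 with a median of 178 on the ketogenic diet, and the difference was 0.24 ± 0.11 (log2, SE), a description. The ranges overlapped at all times but ZT12, where the ketogenic livers had 212, 259.6 and 273 and the chow livers 151, 156 and 195. No Tfrc rhythm passed in either tissue on either diet (limma adjusted p between 0.147 and 0.758). The ketogenic liver rhythm passed without ketogenic ZT16 replicate 5 (limma adjusted p = 0.0454).

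Slc11a2 encodes DMT1, the transporter that brings ferrous iron into enterocytes and out of endosomes, and Cybrd1 encodes duodenal cytochrome b, a ferric reductase of the brush border. Intestinal Slc11a2 ran from 481 to 604 with a median of 532 on chow and from 412 to 623 with a median of 509 on the ketogenic diet, with 4 ketogenic arrays below every chow array. The difference was -0.06 ± 0.03 (log2, SE, 95% interval -0.13 to 0.01) and did not pass (limma adjusted p = 0.159). It was 0.0016 with quantile normalisation and -0.08 without the 3 arrays in doubt, where it passed (limma adjusted p = 0.0417). The ketogenic rhythm of Slc11a2 in intestine was called (amplitude 0.13 ± 0.03, peak ZT4.8, limma adjusted p = 0.023), with group means of 547 ± 13.2 (SD, n = 3) at ZT4 and 457 ± 38.8 at ZT16. That call was lost without ketogenic ZT16 replicate 6 (limma adjusted p = 0.0932) and in the test of any difference among times (0.14). In the authors' deposited table the JTK q-value for this rhythm was 0.166 and the BIO_CYCLE q-value 0.412. On chow the amplitude was 0.03 ± 0.03 (limma adjusted p = 0.842), and the difference between the diets did not pass (0.839).

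In liver the difference of Slc11a2 was -0.11 ± 0.04 (log2, SE) and -0.07 with quantile normalisation, a description, with values from 284 to 428 with a median of 361 on chow and from 245 to 393 with a median of 334 on the ketogenic diet. Its fitted liver peaks were in the dark, at ZT21.7 on chow and ZT19.4 on the ketogenic diet, with amplitudes of 0.11 and 0.13 (SE 0.05 each), and neither passed (limma adjusted p = 0.206 and 0.0697). The ketogenic one passed with quantile normalisation (limma adjusted p = 0.0248) and without ketogenic ZT20 replicate 27 (0.0126), and in the authors' deposited table its JTK q-value was 0.043 and its BIO_CYCLE q-value 0.4. Cybrd1 was near the filter in intestine, from 99.2 to 144 with a median of 114 on chow and from 81.6 to 134 with a median of 117 on the ketogenic diet, with a difference of -0.01 ± 0.05 (95% interval -0.10 to 0.08, limma adjusted p = 0.869). In liver Cybrd1 lay between 71.6 and 115 on all arrays and was not tested. The labels give no intestinal segment, so the intestine values of Slc11a2 and Cybrd1 cannot be assigned to duodenum.

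Tfr2, Hfe and Bmp6 supply the iron signal to hepcidin in liver. Tfr2, the liver form of transferrin receptor, had the smallest SD between arrays of a group among the members (0.05 on the log2 scale) and ran from 2383 to 2791 with a median of 2598 on chow and from 2369 to 2717 with a median of 2559 on the ketogenic diet, a difference of -0.01 ± 0.02 (log2, SE). Hfe, the protein mutated in the common form of haemochromatosis, ran from 426 to 574 with a median of 501 and from 446 to 556 with a median of 516, a difference of 0.01 ± 0.03. Bmp6, the endothelial ligand that raises hepcidin, ran from 297 to 391 with a median of 352 on chow and from 269 to 341 with a median of 305 on the ketogenic diet. The Bmp6 difference was -0.17 ± 0.03, 1.12-fold lower, the ketogenic mean was lower at 6 of 6 times, and 6 ketogenic arrays lay below every chow array. Beside this, 6 markers of sinusoidal endothelium summed to between 4848 and 6246 on chow and 4572 and 6528 on the ketogenic diet, with a median difference of -0.02. As a description and not as a test, 0 of the 6 lay past the threshold of a called difference, against 48.3% of 12463 liver genes. Before adjustment 2 of the 6 did. In bulk tissue, fewer cells of a type and less RNA per cell cannot be told apart. None of the 3 genes had a called rhythm in liver (limma adjusted p between 0.139 and 0.941).

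Id1 encodes a helix-loop-helix inhibitor that bone morphogenetic protein signalling induces in liver alongside hepcidin. In liver it ran from 164 to 416 with a median of 217 on chow and from 109 to 396 with a median of 259.8 on the ketogenic diet, a difference of 0.14 ± 0.12 (log2, SE), with the opposite sign to Bmp6 and a size close to its SE. It was 0.07 without ketogenic ZT16 replicate 6 and 0.21 without ketogenic ZT16 replicate 22. In intestine it ran from 966 to 1596 with a median of 1283 and from 788 to 1556 with a median of 1247, a difference of -0.07 ± 0.06 (95% interval -0.18 to 0.04, limma adjusted p = 0.299). Intestinal Id1 had amplitudes of 0.19 ± 0.06 on chow, peaking at ZT11.0, and 0.17 ± 0.06 on the ketogenic diet, peaking at ZT8.9, which did not pass (limma adjusted p = 0.0996 and 0.134). Without the 3 arrays in doubt both passed (0.0102 and 0.0356). Its chow means went from 1019.9 ± 46.9 (SD, n = 3) at ZT0 to 1467 ± 157 at ZT12.

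Counted in liver as a description and not as a test, the fitted differences of 3 of 9 members (Hamp2, Bmp6 and Slc11a2) lay past the threshold used for the background, and 2 of 9 with quantile normalisation or with no filter. In the background 48.3% of 12463 genes were, 19.3% higher and 29% lower on the ketogenic diet, with a median difference of -0.03 over all genes. All 3 members were lower, Hamp2 being the gene the set was chosen on, and nothing is read from this count because the contrast chose the members. In intestine, where the diet contrast was not used, 0 of 6 members passed the limma test, against 50.9% of 12463 genes (19.7% higher and 31.2% lower, or 3134 higher and 3022 lower with quantile normalisation). At an unadjusted p below 0.05 there was 1, Tfrc. The intestinal Hamp2 difference was -0.01 ± 0.06 (95% interval -0.14 to 0.11, limma adjusted p = 0.868).

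**Figure D3:**
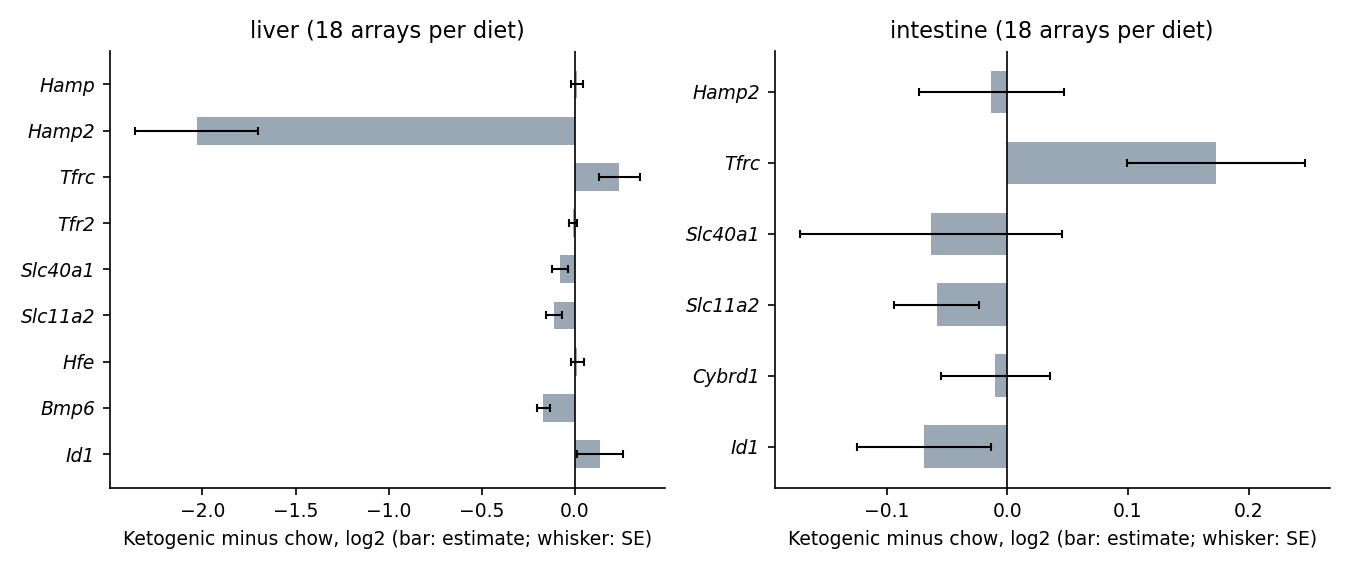
Fitted difference between ketogenic and chow arrays (log2, x axis) for each member that passed the filter, with liver at the left and intestine at the right on axes of different width; bars are estimates from 18 arrays per diet and whiskers are 1 SE. Hamp2 in liver stands at -2.03 while every other bar in either tissue lies between -0.17 and 0.24.

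Rhythms in intestine were called for 0 of 6 members on chow, against 8.87% of genes, with 1 at an unadjusted limma p below 0.05 (Id1). On the ketogenic diet 1 of 6 was called (Slc11a2), against 14.6%, with 3 at an unadjusted p below 0.05 (Slc40a1, Slc11a2 and Id1). The rhythms of 0 of 6 members differed between the diets, against 0.0401% of genes, and 0 of 6 had an unadjusted limma p below 0.05 for that difference.

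Levels in liver and intestine were compared on chow in a joint limma fit of both tissues. Of the members, 5 passed the filter in both tissues and 5 of 5 differed, close to the 84.6% of 10871 genes that did, so the count says nothing particular of the members. Hamp2 was 4.05 ± 0.25 (log2, SE) higher in liver, 16.6-fold, and ranged from 134 to 184 with a median of 163 in chow intestine. The Hamp2 difference is a description, since its chow liver values were among those that chose the set. Slc40a1 was 2.32 ± 0.09 higher in liver (5.00-fold, adjusted p = 2.66e-32). Tfrc and Id1 were higher in intestine, by 6.25-fold (log2 difference, liver minus intestine, -2.64 ± 0.10, adjusted p = 1.54e-32) and 5.19-fold (-2.38 ± 0.10, adjusted p = 1.12e-29). Slc11a2 was 1.47-fold higher in intestine (-0.55 ± 0.04, adjusted p = 7.27e-19). The groups did not overlap between tissues for Tfrc, Id1, Slc40a1 and Slc11a2. The single low chow liver made Hamp2 overlap, since its 182 lay inside the intestinal range. The share of all genes without overlap between the tissues was not computed, so nothing particular to the members is read from this. Without the filter the remaining 5 members passed too, Hamp, Tfr2, Hfe and Bmp6 with higher values in liver and Cybrd1 1.24-fold higher in intestine. Over all intestine arrays Tfr2 read 0.044 to 35.9, Hfe 33.9 to 70.4 and Bmp6 52.8 to 87.4, all under the filter.

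Hamp in intestine was near the bottom of the scale. It ran from 0.032 to 136 with a median of 11.6 on chow and from 6.44 to 66 with a median of 21.6 on the ketogenic diet. All 3 ketogenic arrays lay above all 3 chow arrays at ZT8, ZT12 and ZT20. Those values were under the filter, so the difference was not tested. The 2 highest values, 136 on chow ZT16 replicate 26 and 66 on ketogenic ZT20 replicate 10, were on the 2 arrays with the highest summed hepatocyte markers, 9221 and 4505, of which albumin gave 6011 and 3042. Over the 36 intestine arrays log2(Hamp + 16) and the log2 summed marker signal had a Pearson r of 0.78, and 0.57 without those 2 arrays. For Hamp2 the same r was -0.17 and -0.34. The points share an array each, these are descriptions, and the part of liver RNA in the intestinal Hamp signal was not tested. The summed hepatocyte markers ran from 208 to 9221 with a median of 312 on chow and from 238 to 4505 with a median of 399 on the ketogenic diet. At ZT8 they summed to 1901, 2124 and 2136 on the ketogenic arrays and to 274, 289 and 296 on chow. At ZT12 the sums were 249, 376 and 446 on the ketogenic diet and 208, 254 and 264 on chow. At ZT20 they were 358, 1011 and 4505 on the ketogenic diet and 248, 330 and 427 on chow.

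**Figure D4:**
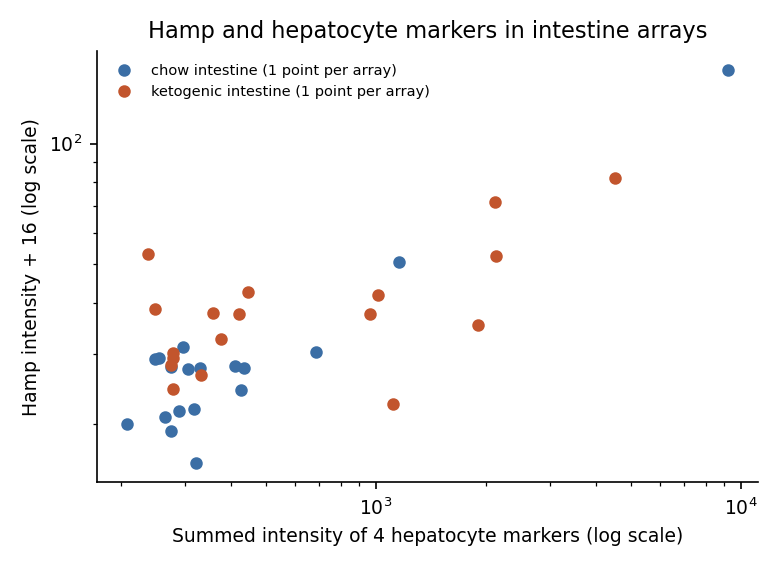
Hamp intensity plus 16 against the summed intensity of 4 hepatocyte markers on each of the 36 intestine arrays (both axes log), chow in blue and ketogenic in orange. The array at the far upper right is chow ZT16 replicate 26, with a marker sum of 9221 and a Hamp intensity of 136, and the next is ketogenic ZT20 replicate 10, at 4505 and 66.

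Beyond the members, 64 further genes of iron handling in 5 lists were on the arrays, and in intestine more of them were lower than higher on the ketogenic diet. Of 53 tested, 25 were lower, 7 higher and 21 did not pass the limma test, with a median difference of -0.08, where the median of all genes was -0.02 and 31.2% of genes were lower and 19.7% higher. Without the 3 arrays in doubt 30 were lower and 7 higher, with a median of -0.11. Over all 12463 genes 3958 were then lower and 3050 higher, with a median of -0.01. The lists were chosen with earlier results of these data known, and the limma p-values make no allowance for that. The genes named are those with the smallest adjusted p in each list. Of the genes that control hepcidin in liver, 11 of 19 were lower and 3 higher in intestine. Id2, an inhibitor of the same family as Id1, had the largest difference. It ran from 1054 to 2038 with a median of 1557 on chow and from 602 to 1213 with a median of 736 on the ketogenic diet, and fell by 0.91 ± 0.07 on the log2 scale (1.89-fold, limma adjusted p = 9.02e-11). Neo1, the receptor neogenin (-0.24 ± 0.03, limma adjusted p = 1.77e-06), and Bmpr2, a receptor of bone morphogenetic proteins (-0.24 ± 0.04, 2.24e-05), fell less.

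Among genes of uptake and plasma carriers 2 of 7 were lower and 2 higher in intestine. Slc46a1, a folate transporter first described as a haem carrier, ran from 348 to 1292 on chow (median 596) and from 292 to 733 on the ketogenic diet (median 390). It fell by 0.70 ± 0.11 on the log2 scale, 1.62-fold, with overlapping groups (limma adjusted p = 8.32e-06). Lrp1, which takes up haem bound to haemopexin, fell by 0.21 ± 0.03 (1.59e-06), and Scara5, a ferritin receptor, was 0.12 ± 0.05 higher (limma adjusted p = 0.038), a call that was lost without any 1 of 15 of the 36 arrays. Among storage and release genes 4 of 7 were lower and 1 higher. Fth1, the ferritin heavy chain, read 6820 to 8254 on chow and 6426 to 7376 on the ketogenic diet and fell by 0.17 ± 0.03 (limma adjusted p = 1.16e-05). Ncoa4, which delivers ferritin to the lysosome, fell by 0.21 ± 0.05 (0.000566), and Pcbp2, an iron chaperone, by 0.14 ± 0.03 (0.000686).

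Of 6 genes that sense iron or oxygen, 3 were lower in intestine and 3 did not pass. Epas1, the hypoxia-inducible factor that drives intestinal iron absorption genes, fell by 0.29 ± 0.05 on the log2 scale (limma adjusted p = 5.35e-05), from 417 to 728 on chow and from 322 to 562 on the ketogenic diet. Ireb2, an iron regulatory protein (-0.19 ± 0.04, limma adjusted p = 0.00055), and Fbxl5, which targets it for degradation (-0.18 ± 0.05, 0.00378), were also lower. Of 14 haem and mitochondrial iron genes 5 were lower and 1 higher. Slc25a37, mitoferrin 1, read 1648 to 2286 on chow and 1165 to 1722 on the ketogenic diet and fell by 0.40 ± 0.04 (1.32-fold, limma adjusted p = 1.25e-08). The haem synthesis enzymes Ppox (-0.23 ± 0.04, limma adjusted p = 6.06e-06) and Urod (-0.22 ± 0.05, 0.000269) fell less. Beside these differences, 6 lymphocyte markers summed to between 525 and 1015 on chow and 354 and 856 on the ketogenic diet, with 2 of 3 tested lower; 5 epithelial markers had 1 higher and 2 lower, and the ileal list 1 of 3 lower. Of the markers tested in the other lists, 1 of 2 proximal ones was lower (median -0.19), 1 of 1 macrophage marker lower (-0.28), 1 of 2 hepatocyte markers higher (median 0.66) and 1 of 1 sinusoidal endothelial marker higher (0.21). The 1 erythroid and 1 pancreatic acinar marker tested did not pass. Over all 12463 genes tested in intestine, 31.2% were lower and 19.7% higher, so these small counts show no shift in cell content. The part of the marker genes in the results was not tested.

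**Figure D5:**
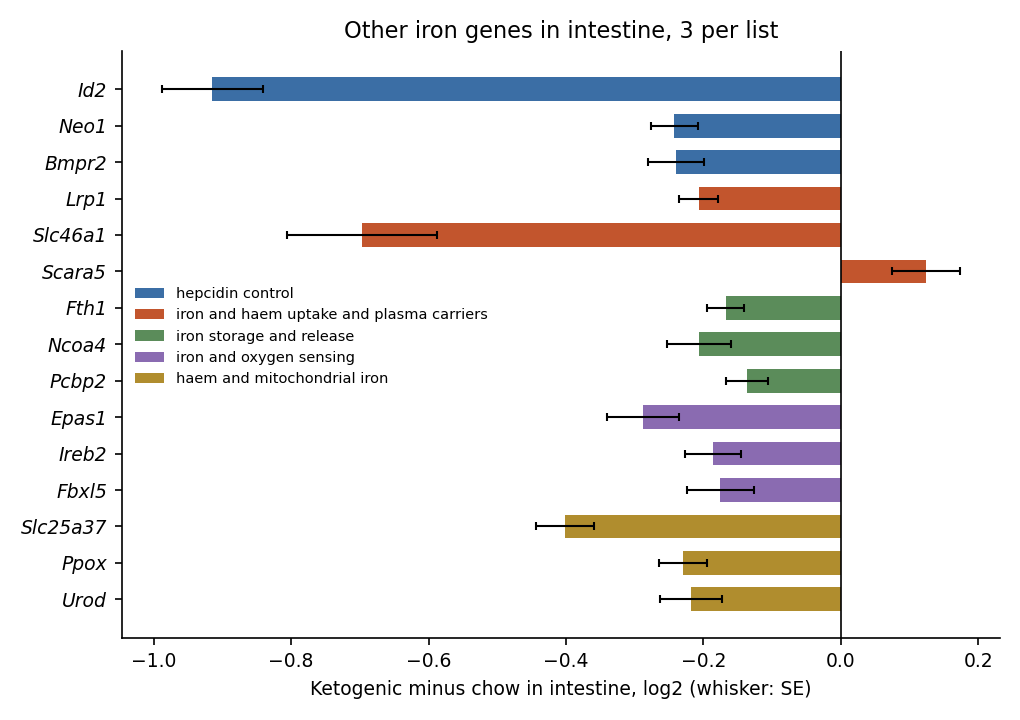
Fitted difference between ketogenic and chow intestine (log2, x axis) for the 3 genes of each list with the smallest adjusted p; bars are estimates from 18 arrays per diet, whiskers 1 SE, and colours the 5 lists. Id2 (-0.91) and Slc46a1 (-0.70) reach farthest, and Scara5 is the one bar above 0.

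In liver, as a description, 28 of 63 further iron genes were lower and 14 higher past the same threshold (19 and 17 with quantile normalisation), with a median of -0.05. Over all genes 29% were lower and 19.3% higher (2767 lower and 2742 higher with quantile normalisation). Of genes that control hepcidin, 13 of 23 were lower and 3 higher, among them Smad1, a signal carrier of bone morphogenetic proteins (-0.24 ± 0.03), Id3 (-0.24 ± 0.09) and Il6ra, the interleukin 6 receptor (0.28 ± 0.07). Haem and mitochondrial genes went the other way by count, with 8 of 16 higher and 4 lower. Alas1, the rate-limiting enzyme of haem synthesis in liver, was 0.42 ± 0.13 higher (median 3521 on chow and 4924 on the ketogenic diet). Cpox, a later enzyme of that pathway, was 0.34 ± 0.05 higher and Hmox1, which breaks haem down, 0.29 ± 0.07 higher. Of uptake and carrier genes 5 of 11 were lower and 2 higher, with Scara5 at -0.42 ± 0.13, the opposite sign to intestine, the zinc and iron transporter Slc39a14 at -0.21 ± 0.04 and haptoglobin, Hp, at 0.14 ± 0.03. Of 7 storage genes 3 were lower and of 6 sensing genes 3 lower and 1 higher, with Epas1 at -0.20 ± 0.04. Kupffer cell and macrophage markers, the other liver cells that handle iron, summed to between 3489 and 6377 on chow and 2892 and 6100 on the ketogenic diet, with 1 of 7 higher.

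Rhythms were called by limma for 13 of the 63 further iron genes in chow liver and 25 in ketogenic liver, and for 5 on chow and 14 on the ketogenic diet of 53 in intestine. Over all genes the shares were 17.6% and 36.5% in liver and 8.87% and 14.6% in intestine. None of them had a called difference in rhythm between the diets in either tissue (0 of 63 and 0 of 53), against 1.19% and 0.0401% of all genes. At an unadjusted limma p below 0.05 there were 12 and 2, and no share of all genes was computed at that cutoff.

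By likeness of the 12 liver group means, the genes closest to Hamp2 were Arpc5 (Pearson r = 0.93), Epas1 (0.92), Gna11 (0.92), Actl6a (0.91) and Hgfac (0.90). All 5 were lower on the ketogenic diet, by 1.07 to 1.39-fold against 4.09-fold for Hamp2. Their direction followed from the pick, since the Hamp2 means they were matched to were themselves lower on that diet. Closest to Hamp in liver were Mup5 (r = 0.92), Phyhd1 (0.91), Mup20, Mup2 and Mup1; the major urinary protein genes are near-identical copies whose probe sets may share RNA. Closest to Tfrc were Nt5dc3 (0.88), Vcam1, Fgf1, Trp53inp2 and Etnppl in liver, and Car9 (0.88), Nup214, Fam219b, Ube2c and Rpusd2 in intestine. These are the highest values among all tested genes over 12 points that share diet and time, and carry no test.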

How the data were processed

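RNA was measured on 72 Affymetrix arrays, 3 in each of 24 groups of tissue, diet and time taken from the sample labels. The deposited series matrix gives probe set intensity values on a linear scale; the submitters' processing notes name Affymetrix Expression Console 1.1.1 and PLIER, and no genome build is given in the sources used here. The authors' deposited sheets of group means matched the means of these intensities in 600144 of 600144 comparisons (relative tolerance 0.0001). Their q-values for 24 h rhythms (JTK, BIO_CYCLE) were copied as deposited. Their Cyber-T p-values for the diet difference in intestine at each time are not given here. Gene names came from the platform table (21789 probe sets) or the GeneSym column of the authors' workbook (1374); 1621 probe sets with several symbols and 10772 with none were left out. The probe set of highest mean was kept per gene, giving 20772 genes.

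From these, log2(intensity + 16) was fitted with limma 3.58.1 in R 4.3.3 (lmFit, eBayes) within each tissue: a mean per group for the diet difference, and a 24 h cosine per diet for rhythms. The tissue difference used 1 joint fit. P-values were adjusted by Benjamini-Hochberg over all genes at or above the 40th percentile of mean log2 value, and below 0.05 was called. The steps were tested on simulated data. The members and gene lists were chosen with earlier results of these data known. All 10 members are named; of the other lists, the 3 genes with the smallest adjusted p in intestine, the 3 with the largest absolute difference in liver, and the 5 genes most like Hamp2, Hamp or Tfrc by group means. Array number limits the precision. Arrays carrying the same title number in liver and intestine did not deviate together (median correlation 0.023 over 22 pairs, -0.0086 over 86 pairs of different numbers), so the tissues were not paired. Alternatives were the filter, pseudocount, normalisation, variance model, time model, and leaving out arrays.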

Additional observations from a re-analysis of the deposited data

How the results depend on the processing

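No member diet, rhythm or tissue call depended on the pseudocount (1) or on median centring. Of the members called, the liver chow count of 1 rhythm became 0 in the test of any difference among times. All genes called went from 2189 to 1249. The liver ketogenic count of 2 rhythms became 3 with quantile normalisation, where all genes called went from 4553 to 4629. The liver diet count of 3, a description, became 2 with quantile normalisation or no filter. Over all genes that count went from 6019 to 5509 with quantile normalisation and to 7523 of 20772 with no filter. The liver rhythm difference count of 0 became 1 with the 60th percentile filter and 1 with the intensity trend. All genes called went from 148 to 190 and 151. The intestine diet count of 0 became 1 with quantile normalisation and 2 without the 3 arrays in doubt. All genes called for diet there went from 6341 of 12463 to 6156 and 7008. Without those 3 arrays the intestine rhythm counts became 1 on chow and 2 on the ketogenic diet. All genes called rhythmic went from 1106 to 1924 on chow and from 1818 to 2242 on the ketogenic diet. Calls thus rose over all genes without the 3 arrays, and nothing particular to the members is read from these counts. The tissue count of 5 became 10 with no filter and 3 with the 60th percentile filter, since these change which members are tested. Other causes were not tested. With the title number as a replicate block in the tissue comparison 5 members were called, as without it, at an estimated correlation of -0.0022; the block was run for no other comparison, since the others lie within 1 tissue.

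Leaving out 1 array at a time, the number of members called ranged from 2 to 4 for the liver diet difference, 2 to 3 for the liver ketogenic rhythm, 0 to 1 for the liver chow rhythm, 0 to 1 for the liver rhythm difference, 0 to 1 for the intestine diet difference, 0 to 1 for the intestine chow rhythm and 0 to 2 for the intestine ketogenic rhythm. In intestine 3 uncalled differences changed sign that way: Hamp2 (-0.049 to 0.019), Slc40a1 (-0.13 to 0.024) and Cybrd1 (-0.032 to 0.0088). Slc11a2 changed sign with quantile normalisation (0.0016). Without the 3 arrays in doubt Slc40a1 (0.059) and Cybrd1 (0.019) did, and without the 2 arrays of highest hepatocyte signal, an alternative chosen after seeing the data, Cybrd1 (0.0067) did. The further iron genes called in intestine, also rerun after seeing the data, ranged from 25 to 29 lower and 5 to 7 higher with 1 array left out. Each member had 1 probe set, so the planned use of another probe set was not run. Values near the filter, as for Cybrd1, and the 3 arrays per group limit what can be seen.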
